A study of Mus musculus with 19 samples.

Results

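The comparison of postnatal day 7 (P7) hearts labelled PDK1 CKO with P7 wild-type (WT) hearts whose titles carry a number rested on 6 of the 19 mouse heart RNA-seq libraries of the series. The 3 cKO libraries carry the numbers 69, 75 and 82, and the 3 WT libraries the numbers 72, 76 and 77. Genes were kept where at least 3 of these 6 libraries reached 1 TPM, a length-normalised share of all transcripts in a library, which left 13603 of the 56066 genes in the deposited table. A further pair of P7 WT libraries, whose titles carry the word heart before the number, was left out of the comparison, and its values are given only beside the results; these are called the letter-titled WT libraries below. The study followed WT hearts from P1 to P21 and cKO hearts at P7 and P21, and its title places the question in the maturation of mitochondria in cardiomyocytes after birth. Total RNA came from hearts. The labels name no Cre driver, allele, sex or litter, and no strain for these 6 libraries, and they do not say whether the libraries are separate animals, so the p-values measure only the spread between these libraries. A heart library mixes all cell types of the organ, and in such bulk samples fewer cells of a type and less RNA per cell cannot be told apart.

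PDK1, encoded by Pdpk1, is the kinase that phosphorylates AKT, S6K, SGK and other AGC kinases in their activation loop, and it thereby links insulin and IGF receptors and PI3K to growth and survival. Active AKT keeps FOXO transcription factors out of the nucleus and promotes mTORC1 activity. In the heart the pathway is known for its part in cardiomyocyte size, survival and metabolism. The symbol Pdk1 belongs to another gene, a pyruvate dehydrogenase kinase, and because the labels give only the name PDK1 both genes were examined.

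The transcriptomes of the P7 groups differed in very few genes. With limma on log2(TPM + 1) and Benjamini-Hochberg adjustment, 9 of 13603 genes passed an adjusted p of 0.05, which is 0.0662% of those tested. Of these, 3 were higher in cKO hearts (0.0221%) and 6 were lower (0.0441%). Among them Gm25184 (higher) and Gm44954, Gm14001 and MSTRG.14394 (lower) were at 0 in all libraries of the other group. Those features passed the filter only through the group where they were high. The strongest calls were a pair of neighbouring genes on chromosome 7 that were higher in cKO, P4ha3, an alpha subunit of collagen prolyl 4-hydroxylase, and Pold3, an accessory subunit of DNA polymerase delta. Differences elsewhere were small: the median log2 difference was 0.00, the 1st and 99th percentiles were -0.56 and 0.61, and 54 genes lay above 1 and 51 below -1. At an unadjusted p under 0.05 there were 743 genes (5.46%), 385 higher (2.83%) and 358 lower (2.63%). The 3 cKO libraries lay wholly above the 3 WT libraries for 715 genes (5.26%) and wholly below them for 651 (4.79%). The count of calls fell to 5 without cKO 75, WT 72 or WT 76 and to 4 without WT 77.

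**Figure D1:**
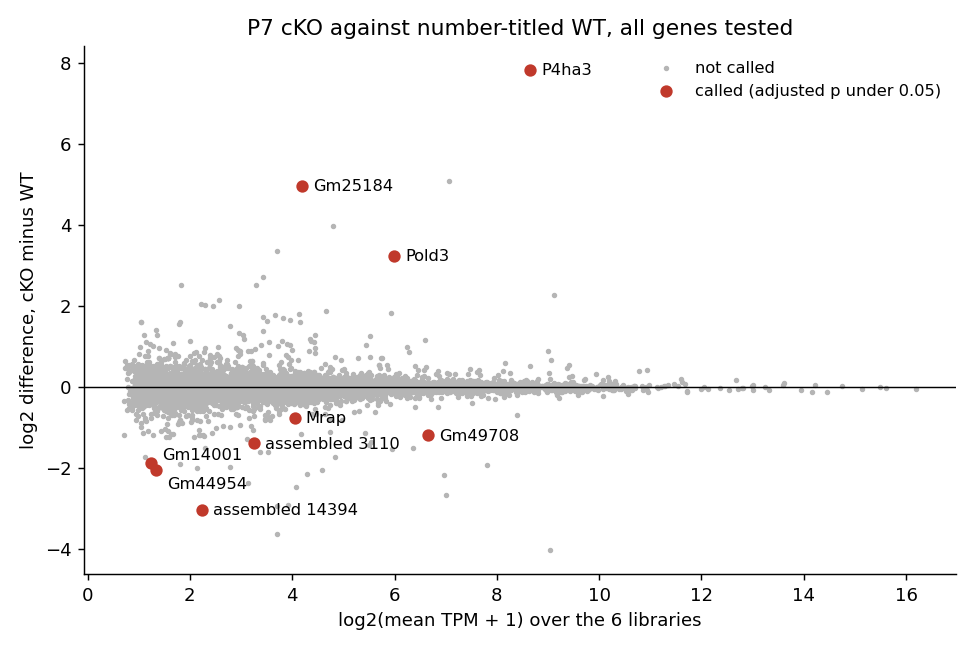
Log2 difference (cKO minus number-titled WT, vertical axis) against log2 of the mean TPM + 1 over the 6 libraries (horizontal axis) for the 13603 genes tested at P7; red points are the 9 genes called. P4ha3 at 7.82 and Pold3 at 3.24 stand above the other named calls among genes with values in both groups, and most genes lie along 0.

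The libraries were alike in their general features. Between 13364 and 13641 genes reached 1 TPM, the 10 highest genes took 31.2 to 33.5% of the TPM, mitochondrial genome transcripts 17.4 to 19.3% and haemoglobin 0.653 to 0.946%. Pearson correlations of log2 values over genes, which are not independent replicates, were 0.9789 to 0.9827 within cKO, 0.9806 to 0.9835 within WT and 0.9763 to 0.9822 between the groups. Xist was at 45.17 and 52.67 TPM in cKO 69 and 75 and at 47.47 in WT 76, whereas the Y-linked gene Ddx3y was at 16.48 in cKO 82 and at 14.21 and 15.47 in WT 72 and 77, so the sexes were unequally split. A fit with a sex term called 6 genes. Cardiomyocyte markers were high in all libraries, with summed levels of 65367 to 66930 TPM over 13 genes in cKO and 62680 to 65734 in WT, and 8 liver and lung markers summed to at most 1.45 TPM.

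Neither gene that carries the name PDK1 differed beyond the spread between libraries. Pdpk1 (chromosome 17, 24073680 to 24150924, mm10 as are all positions here) was at 8.09, 7.98 and 7.95 TPM in cKO hearts, against 8.09, 7.96 and 9.32 in WT. The cKO values lay close to the 2 lower WT values, the letter-titled WT were higher at 11.9 and 11.63, and the log2 difference was -0.07 ± 0.08 (SE; limma, adjusted p = 0.978). Pdk1 (chromosome 2) was at 39.14, 40.18 and 36.85 TPM in cKO hearts, against 36.12, 39.62 and 40.52 in WT, with a log2 difference of 0.00 ± 0.07. The P21 hearts gave Pdpk1 levels of 5.54, 5.55 and 4.95 TPM for cKO and of 6.17 and 6.6 for number-titled WT. All P21 cKO values were below the WT values, without a call (log2 -0.22 ± 0.10, limma, adjusted p = 0.159). These are values for whole genes, in which the loss of a single exon may not show, and the labels do not say which part was deleted, so they do not check the labels.

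P4ha3 and Pold3 separated the genotypes in every library. P4ha3 (chromosome 7, 100285520 to 100319699) reached 789.75, 775.61 and 833.25 TPM in cKO and 2.14, 3.32 and 2.3 TPM in WT. All cKO libraries were far above all WT libraries, and the letter-titled WT were at 3.44 and 3.24; the group means were 799.5 ± 30.0 and 2.59 ± 0.640 (SD, n = 3 each). The log2(TPM + 1) difference was 7.82 ± 0.12 (SE; limma, adjusted p = 7.35e-07), and since 1 was added to values near 2 TPM this understates the ratio of the means. Pold3 (chromosome 7, 100082111 to 100121565) was at 118.42, 98.85 and 126.22 TPM in cKO hearts, against 9.15, 13.43 and 11.35 in WT. Its groups did not overlap either, the letter-titled WT were at 15.29 and 14.87, and the difference was 3.24 ± 0.14 (limma, adjusted p = 6.30e-04). Both calls held in all 19 alternative analyses, with differences of 7.53 to 8.24 for P4ha3 and 2.84 to 3.36 for Pold3.

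No other gene of the same enzymes was called. Among 11 measured collagen prolyl and lysyl hydroxylase genes and their partners, P4ha3 aside, none reached an unadjusted p under 0.05, and the median log2 difference was 0.01. P4ha1, the widely expressed alpha subunit, was at 12.81, 16.89 and 12.19 TPM in cKO hearts, against 12.17, 13.61 and 13.1 in WT, with overlapping groups. P4ha2, a further alpha subunit, differed by -0.06 and P4hb, the shared beta subunit, by 0.00. Among 17 DNA polymerase and clamp genes, Pold3 aside, only Pold2, the second small subunit of polymerase delta, reached an unadjusted p under 0.05 (29.46, 24.86 and 30.93 TPM in cKO against 21.32, 20.16 and 22.93 in WT, log2 0.38, limma adjusted p = 0.699). All cKO values of Pold2 lay above the WT values, also above the letter-titled WT at 24.53 and 22.99, but it was not called. Of the 17 genes 15 lay above 0, beside 6854 of all 13603, with a median of 0.06. Pold1, the catalytic subunit, differed by 0.08. Of 30 cell cycle genes none reached an unadjusted p under 0.05 or separated the groups.

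**Figure D2:**
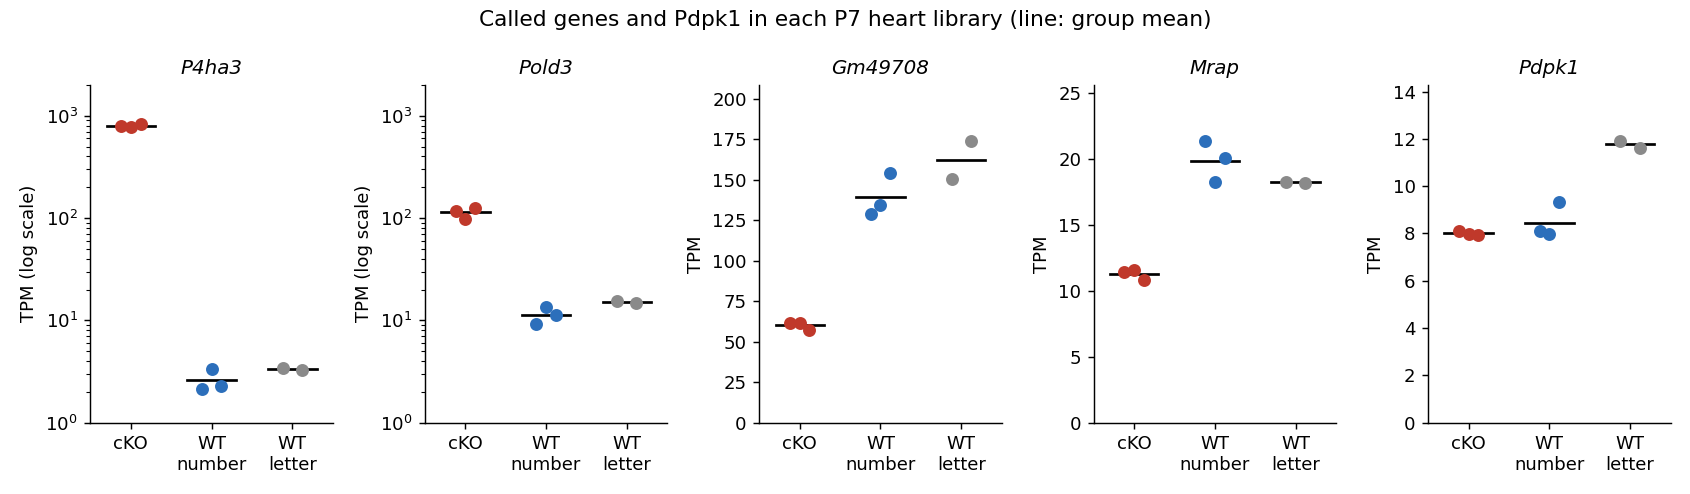
TPM of P4ha3, Pold3 (log axes), Gm49708, Mrap and Pdpk1 (linear axes from 0) in each P7 library, with cKO in red, number-titled WT in blue and letter-titled WT in grey; each point is a library and each line a group mean. The cKO points of the first 2 genes lie above all WT points, those of Gm49708 and Mrap lie below them, and those of Pdpk1 lie level with the 2 lower number-titled WT.

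The stretches before the starts of P4ha3 and Pold3 are shown because these were the only named protein-coding genes called higher. That of Ccn1 is shown as an example of the uncalled genes that separated cKO from all 5 WT libraries, described below. The stretches are RefSeq sequences of build GRCm38.p6, 5′ to 3′ on the gene's strand. They are limited to 250 bases before the start and, for Pold3, to the 187 of these outside annotated exons. P4ha3 is at chr7:100285270-100285519 on the plus strand, Pold3 at chr7:100121566-100121752 on the minus strand and Ccn1 at chr3:145649986-145650235 on the minus strand. Capitals mark a match to a motif searched on both strands, GTAAACA (FOXO) or GGAATG (TEAD, reading CATTCC on the other strand).
P4ha3: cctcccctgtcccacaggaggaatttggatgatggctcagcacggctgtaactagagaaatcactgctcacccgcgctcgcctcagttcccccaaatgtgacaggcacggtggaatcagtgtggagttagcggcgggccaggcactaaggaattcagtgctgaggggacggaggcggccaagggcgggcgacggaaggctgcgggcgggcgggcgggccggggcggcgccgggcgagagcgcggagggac
Pold3: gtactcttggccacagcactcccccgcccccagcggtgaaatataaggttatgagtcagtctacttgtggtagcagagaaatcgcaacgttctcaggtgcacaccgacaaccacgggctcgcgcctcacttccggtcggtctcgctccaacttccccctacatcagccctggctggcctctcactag
Ccn1: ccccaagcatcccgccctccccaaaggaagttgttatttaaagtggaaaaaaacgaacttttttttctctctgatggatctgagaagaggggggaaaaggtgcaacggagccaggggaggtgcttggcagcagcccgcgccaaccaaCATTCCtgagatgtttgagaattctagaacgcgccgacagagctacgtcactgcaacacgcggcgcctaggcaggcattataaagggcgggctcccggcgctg
The P4ha3 and Pold3 windows held no match to either motif, and the Ccn1 window held 1 TEAD match, 103 bases before the start. For comparison, 3.17% of 32851 promoter windows of 250 bases held the FOXO motif and 12.6% the TEAD motif. In windows not printed, Txnip held 1 FOXO match, Nppb 1 TEAD match and Ankrd1 2, and Nppa, Pik3ip1 and Inpp5d held neither. Nppa, Nppb and Ccn2 also separated cKO from all 5 WT libraries, and no window is given for Ccn2. A match is a string of letters and not a shown binding site.

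Around P4ha3 and Pold3 no other gene was called, and most that separated the groups lay lower in cKO. Within 1 Mb on either side 32 genes were tested, of which P4ha3 and Pold3 were called. Apart from these, 1 gene lay higher without overlap (the noncoding Gm35082, at most 2.66 TPM) and 7 lay lower without overlap, against 4.79% of all genes; the median over the 32 was -0.08. Ppme1, which removes the methyl group of protein phosphatase 2A and lies next to P4ha3 (100326737 to 100372307), was at 18.6, 21.52 and 18.96 TPM in cKO hearts, against 28.42, 28.71 and 27.75 in WT. All its cKO values were below its WT values, but it was not called (log2 -0.50 ± 0.07, limma, adjusted p = 0.193). The others were Lipt2, a lipoyl transferase (-0.68), Kcne3, a potassium channel subunit (-0.75), Pgm2l1 (-0.39) and Map6, a microtubule protein (-0.35). Dgat2, a triglyceride synthesis enzyme (-0.30), and the nucleotide receptor gene P2ry2 (-0.25) completed the 7. Lipt2, Kcne3, Pgm2l1 and Map6 were low too, at most 4.49, 2.83, 1.61 and 2.9 TPM in the 6 libraries. Kcne3 was separated only by 2.42 TPM in cKO 75 against 2.46 in WT 76. Against the letter-titled WT the difference was 0.05 for Map6 and 0.35 for P2ry2. Within 1 Mb of Pdpk1, 56 genes were tested and none was called by limma, with 3 at an unadjusted p under 0.05 and a median of 0.01.

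**Figure D3:**
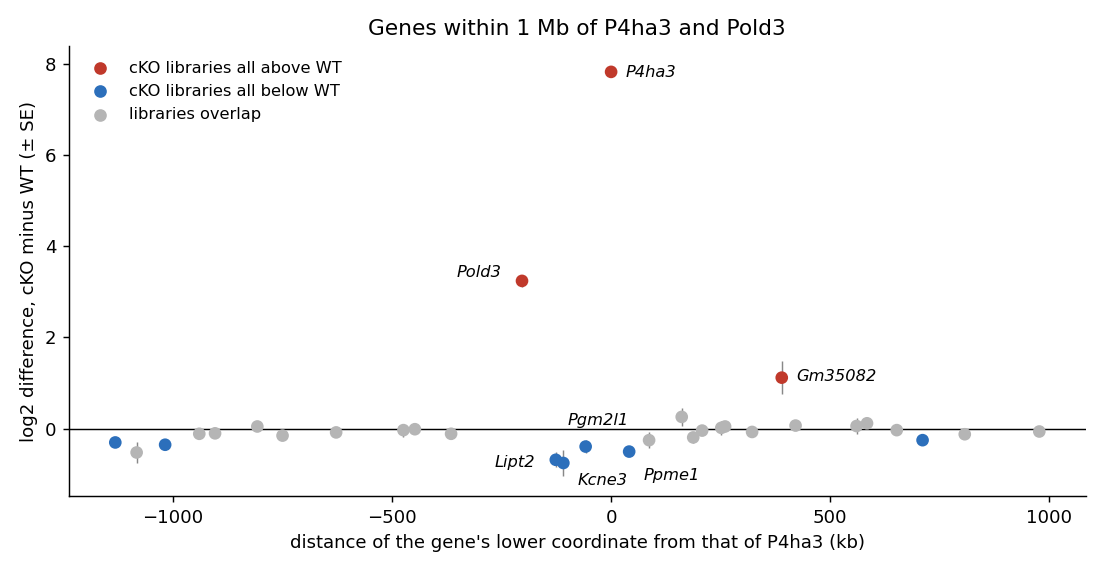
Log2 difference at P7 (cKO minus WT, ± SE) of the 32 genes tested within 1 Mb of P4ha3 and Pold3, by the distance of each gene's lower coordinate from that of P4ha3 in kb. P4ha3 at 7.82 and Pold3 at 3.24 stand alone, while 7 genes marked in blue, Ppme1 among them, have all cKO libraries below all WT libraries.

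A pair of genes on chromosome 16 was lower in cKO. Gm49708 (90341595 to 90349642), annotated as a processed transcript, was at 61.63, 61.28 and 57.5 TPM in cKO hearts, against 128.9, 134.51 and 154.24 in WT. Its groups did not overlap, the letter-titled WT were higher still at 150.74 and 173.91, and the log2 difference was -1.19 ± 0.08 (limma, adjusted p = 0.00348). Mrap (90738207 to 90749785), the accessory protein of the ACTH receptor, was at 11.43, 11.57 and 10.85 TPM in cKO hearts, against 21.36, 18.27 and 20.05 in WT. Again all cKO libraries were lower, also than the letter-titled WT at 18.28 and 18.18; the difference was -0.76 ± 0.08 (limma, adjusted p = 0.0373). The Gm49708 call held in 18 of 19 alternatives (highest adjusted p 0.0536), whereas the Mrap call was lost in 13, among them the removal of any 1 of the 6 libraries, with adjusted p up to 0.867 and differences of -0.82 to -0.65. Of the 22 genes tested within 1 Mb of the pair, 4 lay lower without overlap, the pair included, and 1 higher. Over all genes the shares were 4.79% and 5.26%. The median of the 22 was -0.05.

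The other 5 calls were short or unannotated features. The assembled transcript MSTRG.3110 (287 bases) was at 4.31, 3.42 and 5.32 TPM in cKO hearts, against 12.76, 11.69 and 13.83 in WT, without overlap (log2 -1.38 ± 0.14, limma, adjusted p = 0.0373); the call was lost in 12 of 19 alternatives, among them the removal of any library but cKO 82. Gm25184 (163 bases) was listed at 56.48, 31.88 and 15.27 TPM in cKO hearts, against 0 in the number-titled WT, but at 22.44 and 20.89 in the letter-titled WT. Gm44954, Gm14001 and MSTRG.14394 (227, 247 and 208 bases) were listed at 0 in all cKO and also in both letter-titled WT. In the number-titled WT they were at 3.22, 2.78 and 3.28, at 2.2, 3.83 and 2.21, and at 4.81, 10.2 and 7.17 TPM. In all 4 the letter-titled WT thus lay on the cKO side. A value of 0 in a table without counts can be a failed estimate. These 4 passed the filter only through the group where they were high, so their separation follows in part from the filter. The calls of Gm25184, Gm44954, Gm14001 and MSTRG.14394 were lost in 8 of 16, 3 of 14, 9 of 14 and 5 of 14 alternatives that kept them.

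Transcripts of PDK1 and AGC kinase genes and of mTOR and translation genes were close to level. Of 26 listed PDK1 and AGC kinase genes 21 passed the filter and none was called. Without overlap 2 lay higher and 0 lower, beside 5.26% and 4.79% of all genes. The median was 0.03 against 0.00 over all genes. Akt2, the AKT isoform most tied to insulin action, was at 88.1, 88.27 and 89.94 TPM in cKO hearts, against 78.41, 76.98 and 80.45 in WT. All cKO values were above the WT values, by 0.17 on the log2 scale, but it was not called (limma, adjusted p = 0.710). Akt1, the broadly expressed isoform, also lay higher without overlap, by 0.08. The groups overlapped for Rps6kb1, which encodes S6K1 (-0.15). Among 23 mTOR and translation genes 1 reached an unadjusted p under 0.05 and the median was 0.03.

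Upstream of PDK1, members of the insulin, IGF and PI3K list tended to lie on the higher side without a call. Of 24 tested members 4 were higher and 0 lower at an unadjusted p under 0.05, beside 2.83% and 2.63% of all genes. Without overlap 5 lay higher and 1 lower, beside 5.26% and 4.79%, and the median was 0.06. Inpp5d, the phosphatase SHIP1 that consumes the PI3K product and is best known from blood cells, was at 9.62, 6.69 and 10.93 TPM in cKO hearts, against 3.34, 5.16 and 4.53 in WT. Its groups did not overlap (log2 0.91, limma, adjusted p = 0.681), and of the letter-titled WT, at 6.2 and 8.21, 1 lay within the cKO range and the other just under it. The insulin receptor gene Insr was at 22.78, 24.65 and 24.13 TPM in cKO hearts, against 20.65, 20.64 and 21.32 in WT, a difference of 0.18, while the letter-titled WT were at 23.89 and 23.5. The growth factor gene Igf2 differed by 0.14 and the adaptor gene Irs1 by 0.26. For Irs1 the letter-titled WT, at 3.43 and 4.09 TPM, were not separate from cKO, at 3.97, 4.4 and 3.82. Pik3ip1, which encodes an inhibitor of PI3K, is outside that list and was named by its p among all genes. It was at 16.9, 16.12 and 14.2 TPM in cKO hearts, against 10.54, 10.79 and 8.36 in WT. That separation (0.62 ± 0.11, limma, adjusted p = 0.399) did not extend to the letter-titled WT, at 15.68 and 18.74, against which the difference was -0.12.

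Of 20 FOXO target and related genes none was called. At an unadjusted p under 0.05, 4 were higher and 0 lower, beside 2.83% and 2.63% of all genes, 2 lay higher without overlap, beside 5.26%, and the median was 0.07. Txnip, which limits glucose uptake and thioredoxin activity, was at 535.01, 401.63 and 476.56 TPM in cKO hearts, against 362.95, 345.84 and 284.27 in WT, a difference of 0.51 without overlap. The letter-titled WT were at 393.96 and 516.39, inside or near the cKO range. Sesn1, Foxo3 and Ccng2 were 0.24, 0.25 and 0.31 higher against the number-titled WT and -0.19, -0.10 and -0.37 against the letter-titled WT. Pdk4, the FOXO-responsive pyruvate dehydrogenase kinase, overlapped between the groups (0.23), and its letter-titled WT, at 140.01 and 197.86 TPM, lay below all cKO values (0.65).

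Genes of the fetal and stress programme of cardiomyocytes lay mostly on the higher side in cKO, without a call. Of 26 members 11 were higher and 1 lower at an unadjusted p under 0.05, beside 2.83% and 2.63% of all genes. Without overlap 8 lay higher and 1 lower, beside 5.26% and 4.79%, 21 lay above 0, and the median log2 difference was 0.19 against 0.00 over all genes. Nppb, the precursor of B-type natriuretic peptide, was at 557.76, 638.3 and 751.83 TPM in cKO hearts, against 400.6, 357.78 and 474.59 in WT. All cKO libraries exceeded all WT libraries, also the letter-titled WT at 429.56 and 209.13, and the difference was 0.66 ± 0.13 (limma, adjusted p = 0.600). Nppa, the precursor of atrial natriuretic peptide, was at 559.82, 860.49 and 587.15 TPM in cKO hearts, against 393.43, 269.63 and 416.21 in WT, with letter-titled WT at 412.78 and 243.44. Its cKO values were again the highest, by 0.89 ± 0.21 (limma, adjusted p = 0.687). Ankrd1, a titin-associated stretch-response gene, overlapped at 601.12, 954.92 and 830.01 TPM in cKO and 333.91, 631.18 and 737.15 in WT. Clu, which encodes the chaperone clusterin, was 0.29 higher without overlap, and the beta-myosin gene Myh7 was level at 0.01. Fhl2, a LIM-domain protein of the sarcomere, lay lower at -0.23. This list shares Ccn1, Ccn2 and Egr1 with the groups described below.

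Nppa is also an atrial marker, and atrial content varied between libraries. Myl7, the atrial light chain, was at 32.88, 251.6 and 2.55 TPM in cKO hearts, against 93.08, 116.9 and 246.6 in WT, and Myl4 followed the same order within cKO at 23.55, 145.31 and 10.38. The cKO library with the most Myl7, cKO 75, also had the most Nppa. The library with the least Myl7, cKO 82, had 587.15 TPM of Nppa. Of 12 atrial markers tested, 11 lay below 0 and Nppa above, with a median of -0.26; the summed level, Nppa included, was 636.6 to 1321 TPM in cKO and 515.2 to 891.5 in WT. The part of atrial content in the Nppa values was not tested.

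Matricellular and immediate-early genes made up a further uncalled group on the higher side. Ccn1, a secreted matricellular protein gene that YAP and TEAD are known to drive, was at 58.89, 43.06 and 70.21 TPM in cKO hearts, against 19.64, 28.39 and 33.78 in WT. Its relative Ccn2 was at 110.47, 113.13 and 171.67 TPM in cKO hearts, against 36.21, 63.47 and 81.6 in WT. Both were separated from the number-titled WT and from the letter-titled WT (at most 37.26 and 86.75), with differences of 1.05 and 1.16, and neither was called (lowest adjusted p over the alternatives 0.147 and 0.153). Of 17 immediate-early and heat-shock genes, transcribed soon after a stimulus, 6 were higher and 0 lower at an unadjusted p under 0.05, beside 2.83% and 2.63% of all genes, 5 lay higher without overlap, beside 5.26%, and the median was 0.19. Egr1 was at 29.15, 18.7 and 27.35 TPM in cKO hearts, against 10.6, 11.05 and 17.99 in WT, a difference of 0.89, but the letter-titled WT at 20.16 and 23.91 lay within the cKO range. Jun differed by 0.73, with letter-titled WT at 53.41 and 69.12 within the cKO range too. Ier2 differed by 0.29 and Zfp36 by 0.36, and Atf3 ranged from 12.48 to 61.55 in cKO and from 6.84 to 17.32 in WT. The remaining matrix genes lay mostly on the other side: of 40 matrix members 10 lay above 0 and 30 below, with a median of -0.07. Fibroblast markers did likewise, with 12 of 14 below 0, none at an unadjusted p under 0.05, and summed levels of 1490 to 1927 TPM in cKO and 1564 to 2068 in WT.

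**Figure D4:**
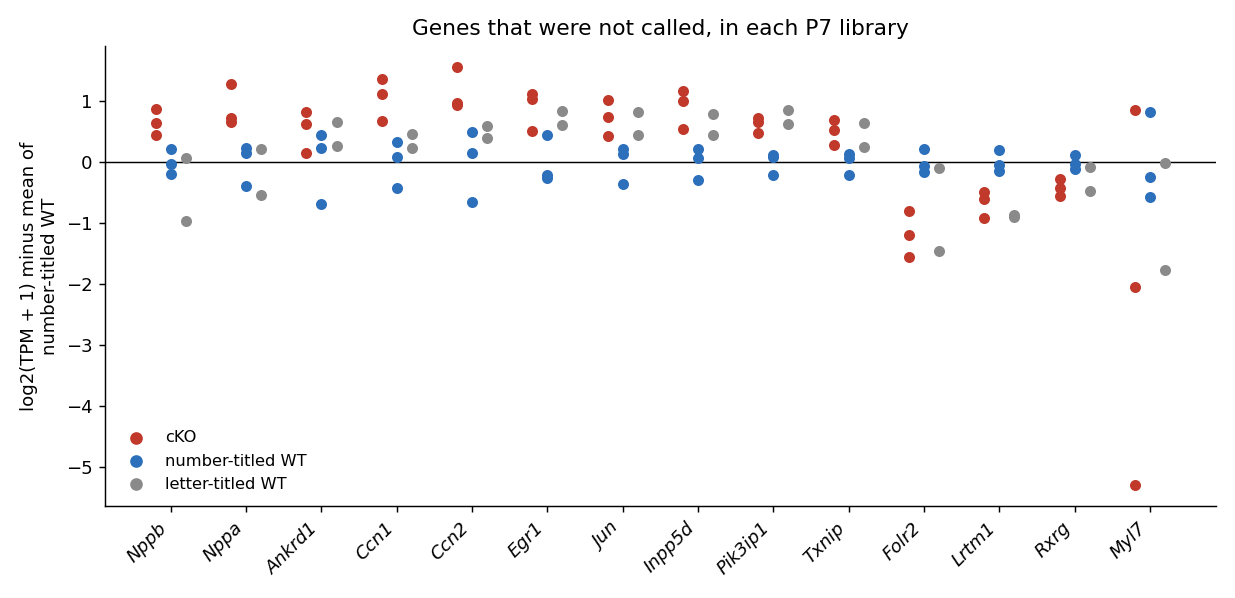
Log2(TPM + 1) of 14 genes that were not called, in each P7 library, relative to the mean of the 3 number-titled WT (horizontal line at 0); cKO in red, number-titled WT in blue, letter-titled WT in grey. Nppb, Nppa, Ccn1 and Ccn2 have cKO above both WT sets, whereas for Pik3ip1, Txnip, Egr1 and Lrtm1 the letter-titled WT lie near the cKO values.

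The mitochondrial and metabolic lists that the title points to held no call at P7. Mitochondrial dynamics (20 tested), mitophagy and autophagy (28), mitochondrial biogenesis (20), fatty acid oxidation (28), the citric acid cycle with pyruvate dehydrogenase (25) and glycolysis (23) had 0 members at an unadjusted p under 0.05 in either direction, and no call by limma. Their medians were -0.03, 0.03, -0.04, 0.00, 0.00 and -0.06. In mitochondrial dynamics the fusion genes Mfn1 and Mfn2 differed by 0.14 and 0.03 with overlapping groups, and the fission receptor gene Mff by -0.12. Mief2, a receptor for the fission protein DRP1, was at 12.44, 12.95 and 11.55 TPM in cKO hearts, against 13.93, 13.77 and 13.6 in WT. That difference of -0.15 separated the groups, but the letter-titled WT of Mief2 were at 12.23, within the cKO range, and 14.96. Bcl2l13, a mitophagy receptor gene, differed by 0.18. Tfam, which packages mitochondrial DNA, differed by -0.07 and Esrra, which drives oxidative genes, by -0.10. For these 20 to 28 genes per list, lack of a call does not show that the levels were equal.

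Most respiratory chain genes were close to level, and some single features jumped between libraries. Of 45 nuclear members 2 were higher and 1 lower at an unadjusted p under 0.05, beside 2.83% and 2.63% of all genes. Without overlap 2 lay higher and 4 lower, beside 5.26% and 4.79%, and the median was -0.01. Ndufa1 (0.12) and Sdhd (-0.11) were separated by small differences without a call (limma, adjusted p = 0.895 and 0.893). Atp5e, a small ATP synthase subunit, was at 654.16, 1227.9 and 652.44 TPM in cKO hearts, against 629.83, 99.36 and 74.67 in WT, so that WT 72 lay close to the cKO values and WT 76 and 77 far below them; the letter-titled WT were at 1250.51 and 1274.75. In the mitochondrial genome mt-Co2 was at 723.08, 6.79 and 19.77 TPM in cKO hearts, against 799.98, 691.65 and 892.15 in WT. Here cKO 69 resembled WT while the other cKO libraries did not. mt-Co3 was higher in all cKO libraries (2125.14, 2039.5 and 2550.5 against 1592.7, 1746.86 and 1645.31), and level with the letter-titled WT at 2230.71 and 2232.38. Mitochondrial genes have near-identical nuclear copies between which an estimator can split reads, so these values are uncertain. Of 13 mitochondrial genes 1 was higher and 2 lower at an unadjusted p under 0.05, with a median of -0.05. The second of those lower, beside mt-Co2, was mt-Nd6, at 1.62, 1.69 and 2.3 TPM in cKO hearts, against 3.74, 2.4 and 3.03 in WT, without overlap (-0.49).

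Sarcomere, calcium and hormone-receptor genes moved little. Of 26 sarcomere genes 2 were higher at an unadjusted p under 0.05, Csrp3, the muscle LIM protein (0.15), and Tnni1, the fetal troponin I (0.21), and Tnni1 turned to -0.23 against the letter-titled WT. None of 29 calcium-handling and channel genes reached an unadjusted p under 0.05, and the median of that list was -0.04. Rxrg, the retinoid X receptor gamma gene, was at 11.78, 13.28 and 10.72 TPM in cKO hearts, against 17.77, 15.01 and 15.97 in WT. All cKO libraries were lower (-0.42, limma, adjusted p = 0.687), but of the letter-titled WT, at 11.47 and 15.39, 1 lay within the cKO range, and the difference against them was -0.15. The thyroid hormone receptor gene Thrb was likewise separated from the number-titled WT (-0.26) and not from the letter-titled WT (1.6 and 1.34 TPM, -0.02). Of 21 members of that list 4 lay lower and 0 higher without overlap, beside 4.79% and 5.26% of all genes. The cardiac transcription factor genes Tbx20 and Nkx2-5 differed by -0.27 and -0.13 without overlap, while Nkx2-5 turned to 0.16 against the letter-titled WT.

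Most cholesterol synthesis genes lay on the lower side, without a call. Of 23 tested members 1 lay above 0 and 22 below, 4 were lower at an unadjusted p under 0.05, beside 2.63% of all genes, and 4 lay lower without overlap, beside 4.79%, with a median of -0.09. Hmgcs1, an early enzyme of the pathway, was at 27.46, 29.59 and 29.23 TPM in cKO hearts, against 32.97, 32.91 and 32.18 in WT. The groups were separate (-0.18, limma, adjusted p = 0.825), as were those of Idi1 (-0.26) and of the SREBP regulator gene Insig1 (-0.17, but 0.00 against the letter-titled WT). Hsd17b7, a ketoreductase of the later pathway, was at 1.47, 2.16 and 1.49 TPM in cKO hearts, against 2.05, 7.45 and 7.98 in WT. WT 72 lay within the cKO range (-1.19, limma, adjusted p = 0.856), while the letter-titled WT, at 12.52 and 13.52, gave a called difference of -2.38 (limma, adjusted p = 0.00189).

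Markers of other heart cell types differed little. Endothelial markers lay above 0 in 11 of 14 cases with a median of 0.05, and mural markers in 6 of 12 with 0.00. In each list 1 marker lay higher and 0 lower without overlap, beside 5.26% and 4.79% of all genes. Of 13 macrophage markers 0 lay higher and 2 lower without overlap, with a median of -0.05. Of these Fcer1g was at 5.56, 6.44 and 6.55 TPM in cKO hearts, against 6.83, 7.94 and 8.46 in WT (-0.28, limma, adjusted p = 0.885). Its letter-titled WT were at 12.38 and 8.35. Folr2, a folate receptor of resident macrophages, was at 0.46, 0.91 and 0.14 TPM in cKO hearts, against 2.2, 1.99 and 2.86 in WT. Its groups were separate at these low levels (-1.18, limma, adjusted p = 0.399), yet the letter-titled WT were at 2.12 and 0.21. All its cKO values were under 1 TPM. It thus passed the filter only through WT, and its separation follows in part from the filter. Summed macrophage markers were 116.5 to 137.1 TPM in cKO and 121.6 to 137.3 in WT, and 12 of 13 lymphocyte and thymus markers were below the filter.

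Genes outside the lists with the smallest p among uncalled genes at 5 TPM or more differed by under 1 log2 unit. Of these Klhl38, a kelch-like protein gene of striated muscle, was at 12.72, 9.02 and 9.58 TPM in cKO hearts, against 4.92, 6.3 and 4.44 in WT (0.88, without overlap). Its letter-titled WT were at 7.9 and 12.76, and against them the difference was 0.03. Others on the higher side were Knl1, a kinetochore scaffold (0.97), Rasl11b, a small GTPase (0.71), Arid5b (0.44), the homeobox gene Hlx (0.39) and the microtubule protein gene Map7 (0.38). On the lower side Lrtm1, a leucine-rich repeat membrane protein gene, was at 17.23, 12.54 and 15.88 TPM in cKO hearts, against 28.22, 22.08 and 23.67 in WT (-0.67). The letter-titled WT of Lrtm1 were at 13.05 and 12.69, at or below the cKO values. Also lower were the calcium/calmodulin kinase gene Camk2b (-0.50), the ciliary rootlet gene Crocc (-0.48), Pou6f1 (-0.36), Cmbl, Fam160a2 and the small heat-shock gene Hspb3 (each -0.35), the mitochondrial phosphatidylserine decarboxylase gene Pisd and the cytokine receptor gene Crlf2 (each -0.34).

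The choice of WT libraries mattered for several of these genes, since the sets of P7 WT libraries differed from each other. In a fit of the 8 P7 libraries 139 of 13918 genes differed between letter-titled and number-titled WT (0.999%), 92 higher (0.661%) and 47 lower (0.338%) in the letter-titled set. Leaving out any 1 of the 8 libraries reduced that count to between 22 and 67. Knl1 and Lrtm1 were among them, at 1.07 and -0.88 (letter minus number, limma, adjusted p = 0.0453 for each). With the letter-titled WT as the only control, 84 genes were called for the genotype, and with all 5 P7 WT libraries 7. The titles of the letter-titled P21 WT libraries carry the tag B6, which no number-titled library carries, and the P7 titles give no such tag; strain, litter and batch cannot be told apart here.

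At P21 the same genotype contrast, fitted with 3 cKO and 2 number-titled WT libraries in a model of 11 libraries, gave many more calls. It called 1535 of 14210 genes (10.8%), 1353 higher (9.52%) and 182 lower (1.28%), where the same model called 5 genes at P7 (0.0352%). The median log2 difference over all genes at P21 was 0.19, and 78.7% of genes lay above 0. Under median-ratio scaling, which removes that shift, 916 genes were called, 374 higher and 542 lower. The P21 count depended on the WT pair: it was 266 without WT 57 and 3462 without WT 60, the remaining WT library then being assumed to vary like the other groups, and 598 and 693 without cKO 59 and cKO 64.

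P4ha3 and Pold3 were higher in cKO at both ages. At P21 P4ha3 was at 574.83, 575.06 and 542.49 TPM in cKO hearts, against 0.09 and 0.13 in WT, and Pold3 at 148.75, 110.2 and 111.9 against 4.58 and 7.5. The groups were again far apart, by 8.99 and 4.16 on the log2 scale. Gm49708 did not differ at P21 (164.55, 126 and 115.6 TPM in cKO, 152.74 and 122.52 in WT), and its difference between the ages was itself called (1.16 ± 0.20, limma, adjusted p = 0.0309). That call was lost in 10 of 15 alternatives, among them the removal of any P7 library, of P21 cKO 59 or of P21 WT 57 (adjusted p up to 0.147, with differences of 0.94 to 1.32). Mrap overlapped at P21 (7.66 to 9.53 against 5.8 and 11.17), though the difference between the ages was not called (0.85, limma, adjusted p = 0.160).

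The natriuretic peptide genes differed far more at P21 than at P7. At P21 Nppa was at 15241.29, 8251.6 and 8176.18 TPM in cKO hearts, against 384.28 and 200.94 in WT, and Nppb at 1041.48, 856.35 and 886.81 against 210.9 and 118.11. The Nppa difference was 0.89 at P7 and 5.18 at P21, and the Nppb difference 0.66 and 2.54. Both changes with age were called (4.29 ± 0.46 and 1.89 ± 0.30, limma, adjusted p = 0.00895 and 0.0288); that of Nppa held in 15 of 15 alternatives, and that of Nppb was lost in 9 of 15, with adjusted p up to 0.0959. Of the genes whose effect differed between the ages, 86 were higher at P21 (0.605%) and 19 lower (0.134%). Under median-ratio scaling that split turned to 38 higher and 47 lower. In all the main fit called 105 of 14210 genes (0.739%) for this difference. That count was 14 to 33 without P7 cKO 69, P7 cKO 82, P7 WT 76, P7 WT 77, P21 cKO 59, P21 cKO 64 or P21 WT 57, 65 without P7 WT 72 and 1219 without P21 WT 60.

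Of the 24 genes ranked at P7, P4ha3, Pold3 and Mrap included, 16 had the same direction at P21. All 12 ranked higher were above 0 at P21, where 78.7% of all genes were, and 4 of the 12 ranked lower were below 0. Called at P21 in the same direction were P4ha3, Pold3, Nppb, Cmbl and Lrtm1. Lrtm1 was at 21.41, 26.36 and 33.1 TPM in P21 cKO and at 52.71 and 66.61 in P21 WT (-1.13, limma, adjusted p = 0.00846). Cmbl, a carboxymethylenebutenolidase gene, was at 19.15, 20.98 and 20.86 against 32.48 and 38.53 (-0.77, limma, adjusted p = 0.00188). As an example of the opposite direction, Crlf2, at -0.34 at P7 without a call, was called higher at P21 (0.56). Its change with age was called (0.90), and kept its direction but lost the call in 11 of 15 alternatives (adjusted p up to 0.107).

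Read the other way, the 182 genes called lower at P21 leaned lower at P7 already. Of these 151 (83.0%) were below 0 at P7 and 47 (25.8%) had all cKO libraries below all number-titled WT, beside 4.79% of all genes tested at P7, although their median P7 difference was only -0.08. Of the 1353 genes called higher at P21, 839 (62.0%) were above 0 at P7, beside 50.3% of all genes, and 153 (11.3%) lay higher without overlap, beside 5.26%. Their median P7 difference was 0.03. The libraries of the 2 ages are separate, but the division of calls at P21 into higher and lower shifts with the scaling, as given above.

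Metabolic lists that were level at P7 held calls at P21. Of 28 fatty acid oxidation genes 2 were called higher and 16 lower at P21 with a median of -0.25, beside 9.52% and 1.28% of all genes, and under median-ratio scaling 0 higher and 17 lower. At P7 no member reached an unadjusted p under 0.05. Acaa2, the thiolase of mitochondrial beta-oxidation, was at 720.7 ± 13.9 TPM in P7 cKO and 734.7 ± 22.5 in P7 WT (SD, n = 3 each). At P21 it was at 358.41, 382.65 and 358.48 in cKO and at 543.49 and 545.44 in WT, and the change with age was called (-0.54 ± 0.06, limma, adjusted p = 0.0137; highest over 15 alternatives 0.0478). The changes with age of Ech1 (-0.51), Acads (-0.40), both beta-oxidation enzymes, and Fabp3, the heart fatty acid binding protein (-0.39), were called too, but lost the call in 11, 10 and 11 of 15 alternatives, among them the removal of any P7 library (for Fabp3, any but cKO 75). These genes were chosen after their values were seen. In mitochondrial dynamics Mief2 was the only call at P21, at -0.44 (limma, adjusted p = 0.0440), beside -0.15 at P7, and its change with age was not called. Median-ratio scaling gave 4 calls among the 20 genes of that list at P21, all lower. Under it 374 of all 14177 genes were called higher and 542 lower. The citric acid cycle and glycolysis lists turned lower as well, with 8 of 25 and 7 of 23 called lower and 0 higher in each.

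Matrix genes, mostly just below 0 at P7, were called higher at P21 in 22 of 40 cases, beside 9.52% of all genes, with a median of 0.62 against 0.19. Under median-ratio scaling 15 were called higher and 1 lower, beside 374 and 542 of 14177 genes. Postn, the matricellular protein periostin, was at 370.8 ± 36.1 TPM in P7 cKO and 389.9 ± 32.4 in P7 WT (SD, n = 3 each), and at 48.4, 62.22 and 63.18 against 23.25 and 30.62 at P21. Its change with age was called (1.15 ± 0.19, limma, adjusted p = 0.0309), as were those of the proteoglycan gene Bgn (0.97), Sparc (0.72) and P4hb (0.63), chosen after their values were seen. Each of these 4 calls was lost without P7 cKO 69, P7 cKO 82, P7 WT 76, P7 WT 77, P21 cKO 59, P21 cKO 64 or P21 WT 57, with adjusted p up to 0.109 for Postn and 0.113 for Sparc and no change of direction. Endothelial and fibroblast markers moved with them at P21, with 10 of 14 and 7 of 14 called higher, beside 9.52% of all genes, or 2 and 3 under median-ratio scaling. None had been called at P7 by limma, and their part in the matrix values was not tested.

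**Figure D5:**
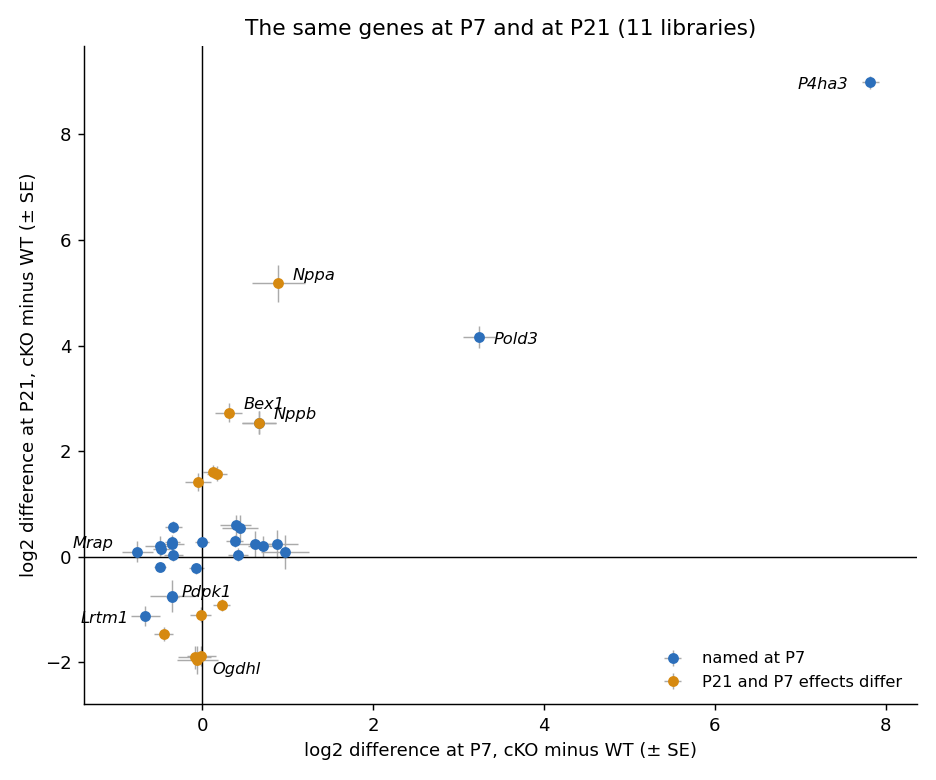
Log2 difference between cKO and number-titled WT at P7 (horizontal) and at P21 (vertical), ± SE, from the model of 11 libraries; blue points are genes named at P7 and orange points genes whose effect differed between the ages. P4ha3 and Pold3 lie far from 0 at both ages, while Nppa, Bex1, Nppb and Ogdhl lie near 0 to 0.89 at P7 and far from 0 at P21.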

How the data were processed

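The authors deposited 1 table of TPM per gene for all libraries, with gene lengths and without counts, so the read depth is unknown and no counting error could be given. Libraries were made with a SMARTer mRNA kit from total heart RNA, per the labels' protocols. TopHat2 2.0.14, Cufflinks 2.2.1 and build mm10 are named per the submitters' processing notes, with no role or order. The table holds 55487 genes with Ensembl identifiers and 579 assembled ones, and 2 columns of libraries outside the series were not used. One P21 library whose title and genotype label disagree was not used.

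Differences are of log2(TPM + 1), which understates changes of low genes, with SE and p from limma 3.58.1 (lmFit, eBayes with trend) in R 4.3.3 and Benjamini-Hochberg adjustment over all genes tested. Genes were kept at 1 TPM or more in 3 or more libraries of each fit: 6 at P7, 8 for the sets of WT, and 11 for P7 and P21 together. A gene is called at an adjusted p under 0.05, and lies without overlap where all libraries of a group are beyond all of the other. No sets were tested. Named were Pdpk1, Pdk1, all calls, up to 12 genes per direction by p (mean of 5 TPM or more in the higher group, log2 of 0.3 or more, no overlap, no placeholder names), up to 4 members per list by p and 3 by mean, and up to 6 genes per direction for the change between ages; others were chosen after their values were seen. Some genes that this rule names are not reported here. The members and lists were chosen with earlier results of these data known. The scripts were tested on simulated data. Positions are from GENCODE M21 and promoters from RefSeq. The alternatives were another pseudocount, filter, scaling, weighting, spread, control set, a sex term and leaving out each library.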

Additional observations from a re-analysis of the deposited data

Results flagged for a closer look

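The genes below had a genotype effect that differed between P7 and P21 by limma's test of that difference, named by the rule for the change between ages. The log2 effect at P21 minus that at P7 was 4.29 for Nppa and 1.89 for Nppb, described above. Bex1, an X-linked adaptor protein gene, changed by 2.42, from 0.31 at P7 (means 60.9 TPM in cKO and 48.8 in WT) to 2.73 at P21 (14.2 in cKO and 1.25 in WT). Cdkl1, a cyclin-dependent kinase-like gene, changed by 1.49, from 0.12 to 1.61. Nab2, a corepressor of EGR factors, changed by 1.47, from -0.05 to 1.41. Nmrk2, a muscle nicotinamide riboside kinase gene, changed by 1.40, from 0.17 to 1.57.

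On the lower side Ogdhl, a relative of the 2-oxoglutarate dehydrogenase gene, changed by -1.88. It was at 5.32 ± 0.739 TPM in cKO and 5.37 ± 0.819 in WT at P7 (SD, n = 3 each), and at 15.1 ± 3.64 in cKO (SD, n = 3) and 63.67 and 52.15 in WT at P21. Tnni2, the fast skeletal troponin I gene, changed by -1.82, Uckl1os, a noncoding gene, by -1.90, Phyhd1 by -1.15, Gsg1l by -1.08 and Csdc2 by -1.0. Of these genes Csdc2 had the largest P7 effect, -0.45, with means of 2.37 TPM in cKO and 3.59 in WT, and was not called at P7. In the alternatives and with each library left out, the calls for Nppa, Bex1 and Cdkl1 held in 15 of 15 settings. Those for Phyhd1, Nmrk2 and Ogdhl were lost in 1, 3 and 3 of 15, for Nab2 in 7, for Nppb in 9 (highest adjusted p 0.0959), for Gsg1l in 11 and for Csdc2 in 12. Those for Tnni2 and Uckl1os were lost in 9 of 14 and 10 of 11 settings that kept the gene.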

How the results depend on the processing

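P4ha3 and Pold3 kept their calls and direction in all 19 alternatives at P7. The count of P7 calls, 9, was 5 with the spread estimated from 11 number-titled libraries, 3 with the spread from 18 libraries and a term for title style, 84 with the letter-titled WT alone as control, and 4 to 8 without 1 library; the other settings gave 6 to 12. Against the letter-titled WT alone, the log2 difference turned to -0.10 for Knl1, -0.12 for Pik3ip1, -0.05 for Arid5b, 0.00 for mt-Co3, 0.21 for Lrtm1, 0.16 for Nkx2-5, -0.65 for Atp5e, 0.06 for Per1, -0.23 for Tnni1, -0.37 for Ccng2, -0.19 for Sesn1, 0.00 for Insig1, -0.10 for Foxo3, 0.03 for Tfam, -0.12 for Bcl2l13, -0.18 for P4ha1, -0.23 for Mfn1, 0.35 for P2ry2 and 0.05 for Map6. With all 5 WT libraries P4ha1 was at -0.02 and Mfn1 at 0.00, and P4ha1 was at 0.00 with the spread from 18 libraries. P4hb, at 0.00, was -0.01 with quantile normalization, 0.00 without mitochondrial and haemoglobin genes, -0.02 with array weights, -0.01 with the spread from 18 libraries and -0.03 with a sex term. Myh7 was 0.00 with quantile normalization. Without 1 library P4hb ranged from -0.04 to 0.05, Myh7 from -0.02 to 0.05, P4ha1 from -0.05 to 0.17, Tfam from -0.16 to 0.02 and Mfn2 from 0.00 to 0.05. Pdk1, at 0.00, was 0.03 without cKO 82, 0.02 without WT 76 and 0.03 without WT 77. Genes whose effect differed between the ages numbered 105, and 14 to 1219 without 1 library. Letter-titled and number-titled WT differed in 139 genes, in 49 with no filter, in 85 with median-ratio scaling and in 22 to 67 without 1 library. For P21, whose alternatives were chosen after seeing the data, the 1535 calls became 851 with no filter, 916 with median-ratio scaling and 266 to 3462 without 1 library. The cause was not tested. Among the genes named at P7, 51 alternative values lost a call. No paired analysis was possible because the cKO and WT libraries compared share no replicate numbers. With 3 libraries against 3 and no counts, small changes could have been missed.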

Other observations

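Zfp40, a zinc finger gene within 1 Mb of Pdpk1 on chromosome 17, was singled out after its values were seen. It was at 1.51, 1.56 and 1.7 TPM in the P7 cKO and at 1.78, 1.71 and 1.88 in the number-titled WT, but at 5.5 and 5.53 in the letter-titled WT (letter minus number 1.22 ± 0.10, limma, adjusted p = 0.00296). Pdpk1 itself was at 11.9 and 11.63 TPM in the letter-titled WT and at 7.95 to 9.32 in the other 6 P7 libraries (0.44 ± 0.08, limma, adjusted p = 0.0615).

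Growth differentiation factor 15 (Gdf15), a stress-induced secreted factor, was at 2.51, 2.75 and 4.76 TPM in P7 cKO and at 2.02, 1.85 and 2.05 in WT, without overlap (0.51, limma, adjusted p = 0.894). The other 19 tested genes of the integrated stress response and mitokine list had no member at an unadjusted p under 0.05, and the list's median was 0.00. In the clock list Dbp was 0.33 higher and Per1 0.41 lower without overlap, and the median was 0.04; Per1 turned to 0.06 against the letter-titled WT, at 9.7 and 9.66 TPM within the cKO range. The HIF target genes Vegfa and Ndrg1 were 0.13 and 0.16 higher without overlap (0.00 and 0.10 against the letter-titled WT). Pfkfb3 of the same list lay lower without overlap (-0.18), and none was called. Of 17 members 3 lay higher and 1 lower without overlap, beside 5.26% and 4.79% of all genes, and the median was 0.00.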
